A study of Homo sapiens with 24 samples.

Results

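The interaction of the KDM5C and YY1 knockdowns was measured in ACHN cells from all 12 RNA-seq libraries of that cell line, 3 each of shNC, shKDM5C, shYY1 and Dsh, out of 24 libraries in the series. The other 12 libraries are the same 4 groups in HK2 cells and were used only to test where the interaction differed between the cell lines. ACHN is an established human renal cancer cell line, labelled ccRCC. shNC carried the control hairpin, shKDM5C the KDM5C knockdown, shYY1 the YY1 knockdown and Dsh both, all in DMEM with fetal bovine serum and with no drug or time course. Per the study's methods, stable lines were made with lentivirus and puromycin, and double-knockdown cells by infecting YY1-depleted cells with a KDM5C hairpin on a GFP plasmid and keeping cells that were resistant and green. Dsh cells therefore went through a second infection and selection that shNC cells are not stated to have had, and this cannot be told apart from the reduction of both genes. Which hairpin was sequenced and whether the 3 libraries of a group came from separate cultures are not stated in the sources used here, so p-values measure the spread between these libraries.

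KDM5C removes methyl groups from lysine 4 of histone H3, a mark of promoters and enhancers, and lies on the X chromosome, where it is a known tumour suppressor gene of clear cell renal carcinoma. YY1 is a zinc finger transcription factor that activates or represses depending on its partners and takes part in loops between enhancers and promoters. If the knockdowns act independently, their fold changes multiply, so their log2 effects add. The interaction of a gene is the departure from that sum: the log2 effect of Dsh against shNC, minus the effect of shKDM5C, minus the effect of shYY1. A negative interaction (below additivity) means less RNA in Dsh cells than the singles predict, and a positive one (above additivity) means more.

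The libraries held between 17910371 and 24272298 counted read pairs, of which CPM (counts relative to library size, scaled by the trimmed mean of M values) were taken. Of the 14 renal carcinoma markers fixed for this line, PAX8 was at 535 and KRT8 at 1390 CPM in shNC cells. The hypoxia marker CA9 of clear cell tumours had 10 counts in all 12 libraries together. CDH6 was at 0.33 CPM in shNC cells, and NDUFA4L2 and MME were low at 1.41 and 1.16. Of the 14, 2 were under 1 CPM in shNC and shKDM5C cells and 3 in shYY1 and Dsh cells. Of 15 markers of immune, endothelial, stromal, blood, liver and islet cells, 13 were under 1 CPM in every group, and CD3E and INS were at 0 counts in all 12. The other two were COL1A1 and PDGFRB, and the list summed to between 576.9 and 627.6 CPM in shNC, 74.2 and 78.7 in shKDM5C, 187.7 and 194.9 in shYY1 and 135.0 and 150.9 in Dsh libraries. COL1A1 had group means of 574.8, 48.6, 156.4 and 133.4 CPM and PDGFRB of 31.2, 25.9, 34.2 and 7.58 in that order of groups. In bulk RNA, fewer cells of a kind and less RNA per cell cannot be told apart. Dsh replicates differed from one another by 5.62 to 6.97 times the variance that counting alone gives (chi-square per degree of freedom), against 1.94 to 3.04 in the other groups. The knockdowns themselves were not equal in the double line. KDM5C had 69.9, 69.9 and 69 CPM in the shNC libraries, 41.1, 43.5 and 41.9 in shKDM5C, 87.6, 87.7 and 92.01 in shYY1 and 39.7, 40.7 and 40.1 in Dsh. It thus rose in shYY1 cells (log2 0.36, adjusted p = 3.99e-07, edgeR) and ended at similar levels in both lines that carry its hairpin, an interaction of -0.42 (standard error 0.067, adjusted p = 6.48e-06, edgeR). YY1 had 133, 137 and 141 CPM in shNC, 149, 142 and 139 in shKDM5C, 78.5, 71.9 and 75.9 in shYY1 and 89.7, 103 and 95.3 in Dsh libraries. YY1 RNA was less reduced in Dsh than in shYY1 cells, with no overlap of the libraries. The YY1 interaction stood at 0.28 (standard error 0.069, adjusted p = 0.00125, edgeR). After an offset for GC content and gene length was fitted per library, that interaction was 0.12 with an adjusted p of 0.11 (edgeR).

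Departure from additivity was common. Of 17228 genes tested, 1385 were at least 2-fold below additivity (8.04% of genes tested, adjusted p under 0.05 and an interaction of -1 or lower, edgeR) and 1766 were at least 2-fold above it (10.3%). Counting departures of any size, 4961 genes were below (28.8%) and 4625 above (26.8%), together 55.6% of those tested. For scale, 50.7% of genes passed the test in shKDM5C against shNC, 41.1% in shYY1 against shNC, 63.2% in Dsh against shNC, 63.0% in Dsh against shKDM5C and 65.0% in Dsh against shYY1. The median interaction over all genes was 0.012, with departures on both sides of it. Among the 1385 genes below additivity, Dsh had the lowest mean CPM of the 4 groups in 1247 (90.0%), and the highest mean was in shYY1 for 734 and in shKDM5C for 498. Among the 1766 above, Dsh had the highest mean in 1298 (73.5%), and the lowest was in shYY1 for 843 and in shKDM5C for 834. These genes were picked by the interaction, of which the Dsh level is a term, so the counts by group are a description. Taken as plain differences of CPM in place of log2 values, the departure had the same sign in 1362 of the genes below (98.3%) and 1758 of those above (99.5%).

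**Figure D1:**
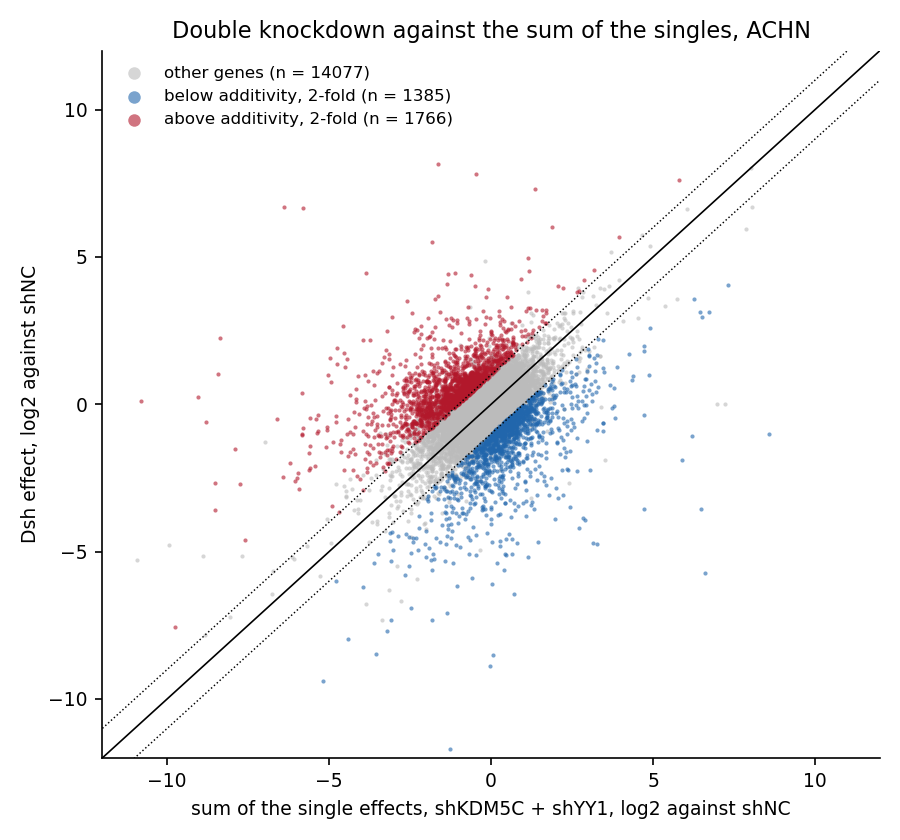
Log2 effect of the double knockdown (vertical) against the sum of the log2 effects of the single knockdowns (horizontal), each against shNC, for 17228 genes, 1 point per gene. The solid line is additivity and the dotted lines a 2-fold departure; 1385 genes below (blue) and 1766 above (red) passed the adjusted p threshold.

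The genes past the 2-fold threshold were placed in 6 patterns by their fitted effects, with an effect under 0.5 on the log2 scale counted as flat. A gene is emergent if both singles were flat. It is deepened if a single had already moved in the direction of the departure. Where a single had moved the other way, the gene crossed over if Dsh ended on the side of the departure, returned if Dsh was flat, and was limited if Dsh stayed on the side of the single. Opposed singles moved in opposite directions. Emergent genes were the largest class below additivity, with 518 of 1385 (37.4%), a median effect of 0.15 in shKDM5C, 0.13 in shYY1 and -1.16 in Dsh cells. Above additivity the largest class was returned, with 600 of 1766 (34.0%), whose medians were -0.78, -0.71 and 0.081. Crossed-over genes numbered 287 below and 452 above, limited genes 59 and 205, deepened genes 177 and 60, and genes with opposed singles 118 and 99. Genes on which a single knockdown had already acted in the same direction were therefore a minority on both sides. These classes share the shNC libraries and are a description. With a cut of 1 in place of 0.5, emergent genes numbered 986 below and 904 above and returned genes 156 and 597.

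**Figure D2:**
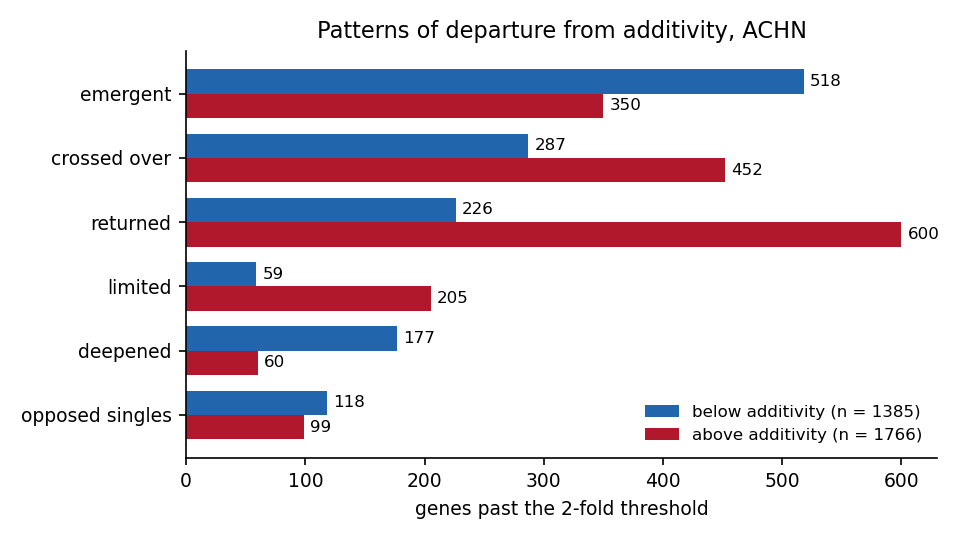
Number of genes past the 2-fold threshold (horizontal) in each of 6 patterns (vertical), below additivity in blue (1385 genes) and above in red (1766 genes). Emergent genes lead below additivity with 518, and returned genes lead above it with 600.

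Each pattern is shown by the protein-coding genes with the largest departure and a mean of at least 10 CPM. ABCA12, a lipid transporter of the epidermis, was emergent and above additivity. Its CPM were 6.59, 6.69 and 5.91 in shNC, 5.91, 7.28 and 7.25 in shKDM5C, 5.45, 4.88 and 5.00 in shYY1 and 53.8, 60.3 and 56.8 in Dsh libraries, so shNC and shKDM5C overlapped, shYY1 lay just under them and Dsh stood far above (interaction 3.39, standard error 0.15, adjusted p = 6.44e-16, edgeR). The riboflavin transporter SLC52A1 (2.85) and the peptide transporter SLC15A3 (2.48) followed the same course. HMGA2, a chromatin protein of embryonic and tumour cells, was deepened and above. It had 39.1, 45.4 and 43.5 CPM in shNC, 67.5, 64.8 and 63.02 in shKDM5C, 60.4, 61.6 and 54.2 in shYY1 and 376, 398 and 376 in Dsh libraries. Additive effects give 89.6 CPM, and the observed level was 384 ± 12.9 (SD, n = 3; interaction 2.10, adjusted p = 1.72e-17, edgeR). NT5E, the ecto-enzyme CD73 that makes adenosine, was of the same class and went from 30.4 ± 0.472 CPM in shNC to 173 ± 5.35 in Dsh cells. TNNC1, a troponin, was deepened in the other direction, with 23.6 ± 1.09, 6.45 ± 2.06, 13.8 ± 1.25 and 0.413 ± 0.0482 CPM in shNC, shKDM5C, shYY1 and Dsh cells (interaction -3.15).

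Limited genes below additivity were raised by a single knockdown, and less than additively by both together. CCL2, a monocyte chemokine, had 9.79, 10.9 and 10.9 CPM in shNC, 30.4, 35.5 and 32.1 in shKDM5C, 68.5, 71.2 and 75.6 in shYY1 and 22.7, 19.3 and 19.6 in Dsh libraries. Both singles exceeded Dsh in every library, against 222 CPM under additivity (interaction -3.44, standard error 0.11, adjusted p = 1.57e-18, edgeR). ID3, a BMP-induced inhibitor of helix-loop-helix factors, and SPHK1, the sphingosine kinase, behaved alike, with interactions of -3.01 and -3.89. EFEMP1 and CLDN11, a matrix glycoprotein and a tight junction claudin, were returned: both rose in each single (EFEMP1 by 1.51 and 2.29 on the log2 scale, CLDN11 by 1.11 and 1.74) and lay at -0.048 and -0.47 in Dsh cells. The reverse was seen for HSPA12A, a distant member of the HSP70 family, which had 116 ± 1.68, 56.3 ± 2.24, 23.2 ± 0.557 and 142 ± 5.04 CPM in shNC, shKDM5C, shYY1 and Dsh cells (interaction 3.65).

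Among protein-coding genes with a mean of at least 10 CPM, the 10 furthest below additivity were SLCO2B1, ADAM28, PLEKHA7, LBH, GDF6, MSLN, BGN, CACNA1H, ANKRD1 and DKK1, with interactions from -7.77 to -4.13. PLEKHA7 (ENSG00000166689, chromosome 11 from 16778295 to 17014443), an adherens junction protein of epithelia (GRCh38 coordinates here and below), is given in full. Its CPM were 29.9, 31.4 and 29.6 in shNC, 63.6, 65.3 and 62.05 in shKDM5C, 101, 105 and 101 in shYY1 and 1.79, 2.13 and 2.34 in Dsh libraries. Each single raised PLEKHA7 and Dsh lost it, at 2.09 CPM against 216 under additivity (interaction -6.67, standard error 0.1, adjusted p = 2.48e-25, edgeR). GDF6 (ENSG00000156466, chromosome 8 from 96142330 to 96160792), a ligand of the BMP family, had 17.6, 17.5 and 17.7 CPM in shNC, 17.4, 17.6 and 16.2 in shKDM5C, 51.4, 46.03 and 47.2 in shYY1 and 2.09, 2.24 and 1.90 in Dsh libraries. The gain of GDF6 in shYY1 cells was absent from Dsh cells, where the gene fell under the control (interaction -4.50, adjusted p = 1.33e-19, edgeR). ANKRD1, a target of YAP and TEAD factors, and DKK1, a secreted WNT inhibitor, rose in both singles. ANKRD1 had 20.5, 21.3 and 20.7 CPM in shNC, 56.5, 58.97 and 57.5 in shKDM5C, 103, 111 and 108 in shYY1 and 15.9, 14.8 and 14.3 in Dsh libraries. Additivity would give 297 CPM, and Dsh lay below the control in every library (interaction -4.31, adjusted p = 3.48e-23, edgeR). LBH, a transcription cofactor, rose mainly in shKDM5C cells, to 27.6 ± 2.18 CPM from 6.23 ± 0.219, and had 1.25 ± 0.689 in Dsh cells (-4.89). DKK1 had 4.16 ± 1.14 CPM in Dsh cells against 72.5 under additivity (-4.13).

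MSLN (the surface glycoprotein mesothelin), BGN (the proteoglycan biglycan), CACNA1H (a T-type calcium channel subunit) and ADAM28 (a membrane metalloprotease) had opposed singles. Each fell in shKDM5C and rose in shYY1 cells, and each had its lowest mean in Dsh cells. For ADAM28 the Dsh and shKDM5C libraries overlapped, and Dsh against shKDM5C did not pass (log2 -1.25, adjusted p = 0.155, edgeR). MSLN had 17, 16.5 and 14.9 CPM in shNC, 6.76, 7.56 and 7.03 in shKDM5C, 54.2, 57.7 and 54.7 in shYY1 and 1.23, 0.819 and 1.29 in Dsh libraries (interaction -4.43, adjusted p = 3.15e-17, edgeR). SLCO2B1, an organic anion transporter, was near silent except in shYY1 cells. Its CPM were 0.567, 0.584 and 0.479 in shNC, 0.37, 0.438 and 0.537 in shKDM5C, 39.7, 42.3 and 37.02 in shYY1 and 0.153, 0.0546 and 0.202 in Dsh libraries. The Dsh value rests on 9 counts over 3 libraries, and that of ADAM28 on 4, so the size of their interactions (-7.77 and -6.93) is loosely set.

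Among protein-coding genes with a mean of at least 10 CPM, the 10 furthest above additivity were NRK, FXYD2, ITGB3, COL5A2, HOXA7, PLEK, HRNR, VAV3, SEMA6A and NEFL, with interactions from 9.27 to 4.02. All 10 fell in shYY1 cells, with log2 effects from -1.02 for NEFL to -9.03 for NRK, and in Dsh cells all 10 lay far above the level that additive effects give. NRK (ENSG00000123572, chromosome X from 105822543 to 105958610), a kinase of the germinal centre family, had 66.2, 69.8 and 69.1 CPM in shNC, 69.2, 63.9 and 70.5 in shKDM5C, 0.0524, 0.159 and 0.165 in shYY1 and 77.96, 86.7 and 76.3 in Dsh libraries. NRK was thus all but lost in shYY1 cells, with 7 counts over 3 libraries, and slightly above the control in Dsh cells (interaction 9.27, standard error 0.18, adjusted p = 3.48e-23, edgeR). The methods derive the double-knockdown cells from YY1-depleted cells, and whether the parent was the shYY1 line sequenced here is not stated. HOXA7, a homeobox gene, had 26.8, 26.1 and 28.8 CPM in shNC, 33.7, 36.3 and 33.2 in shKDM5C, 0.366, 0.425 and 0.33 in shYY1 and 12.9, 12.6 and 13.8 in Dsh libraries. VAV3, an exchange factor for small GTPases, and SEMA6A, a membrane semaphorin, were limited in the same way, with Dsh means of 5.67 ± 0.881 and 14.4 ± 1.52 CPM against 0.297 and 0.793 under additivity.

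FXYD2, ITGB3 and COL5A2 crossed over. FXYD2 (the gamma subunit of the kidney sodium pump) had 9.99, 10.3 and 8.89 CPM in shNC, 3.17, 3.12 and 2.79 in shKDM5C, 0.943, 0.743 and 1.32 in shYY1 and 28.9, 24.3 and 34.1 in Dsh libraries. Both knockdowns lowered FXYD2 and the pair raised it (interaction 6.55, standard error 0.23, adjusted p = 1.09e-17, edgeR). ITGB3 (ENSG00000259207, chromosome 17 from 47253846 to 47311816), a beta subunit of integrins that bind vitronectin and fibronectin, had 9.27, 8.07 and 8.25 CPM in shNC, 7.29, 6.02 and 7.08 in shKDM5C, 0.995, 1.11 and 1.32 in shYY1 and 46.97, 46.3 and 48.95 in Dsh libraries. The interaction of ITGB3 reached 5.70 (adjusted p = 2.80e-19, edgeR), and FN1, fibronectin itself, moved the same way at a far higher level. FN1 had 3253, 3488 and 3209 CPM in shNC, 2072, 2069 and 2071 in shKDM5C, 840.0, 907 and 849 in shYY1 and 5906, 6397 and 6123 in Dsh libraries, where additive effects give 540.2 (interaction 3.51, standard error 0.052, adjusted p = 2.48e-25, edgeR). NEFL, the light neurofilament chain, HRNR, an epidermal protein, and PLEK, pleckstrin, had 69.2 ± 2.18, 54.02 ± 8.62 and 36.2 ± 1.83 CPM in Dsh cells against 4.24, 2.73 and 1.52 under additivity.

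**Figure D3:**
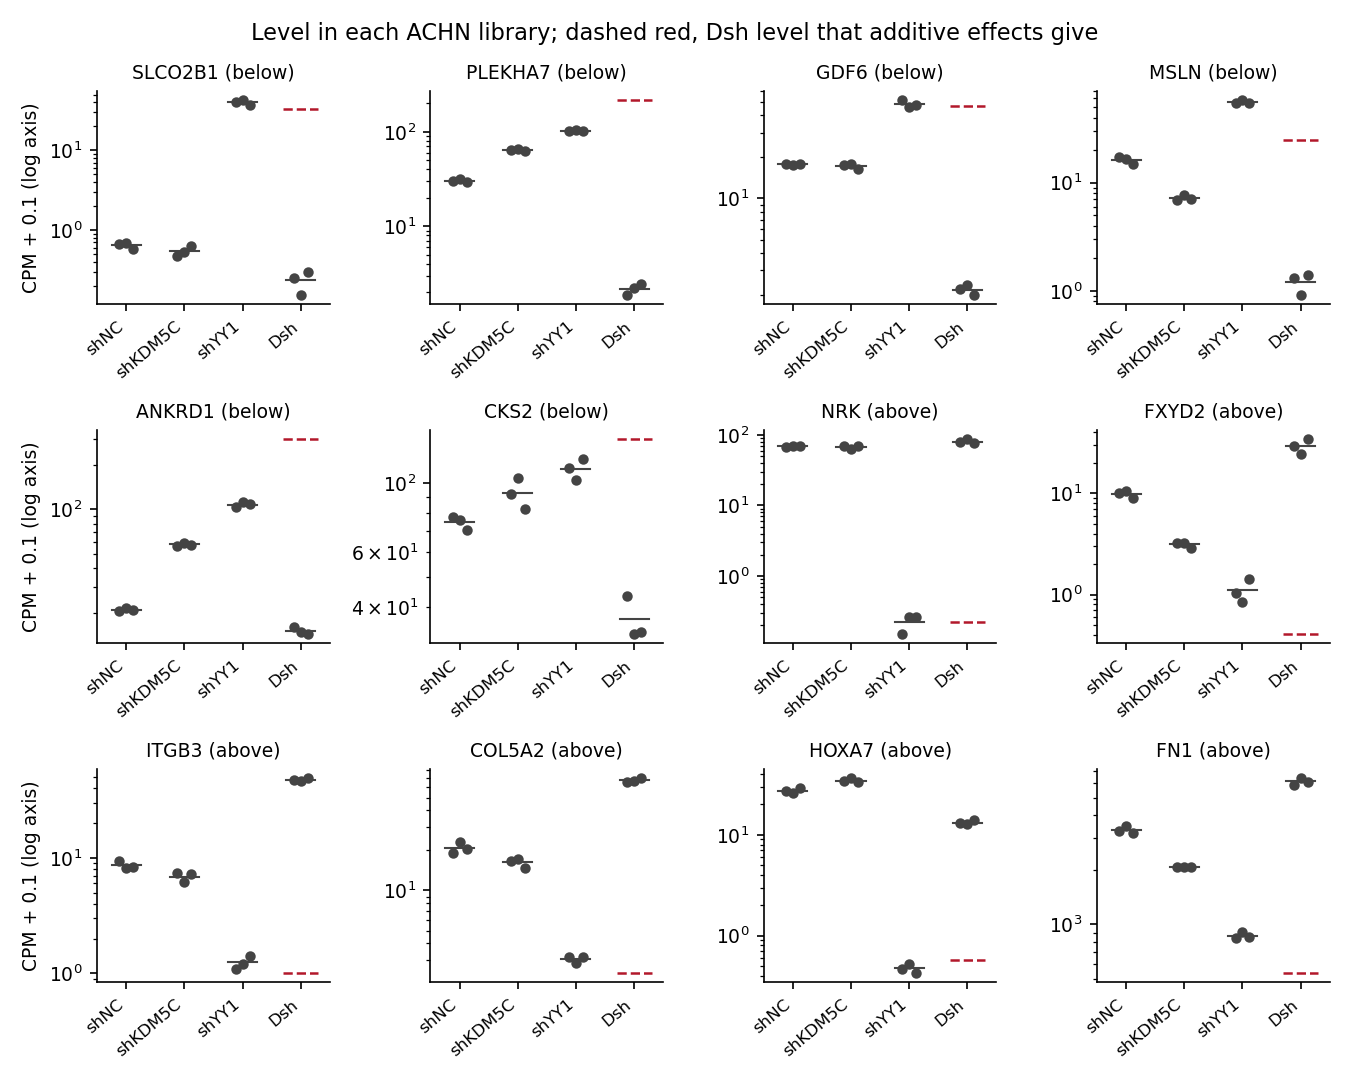
CPM plus 0.1 on a log axis (vertical) of 12 genes in each of the 12 ACHN libraries by group (horizontal), with a point per library, a bar at the group mean and a dashed red line at the Dsh level that additive effects give. In the 6 genes below additivity the Dsh points lie under the dashed line, and in the 6 above they lie over it.

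Genes of the cell cycle lay mostly below additivity. Here and in the lists that follow, the genes named as leading are those furthest from additivity among members with a mean of at least 5 CPM. Over all genes tested, 28.8% were below additivity and 26.8% above, the shares to set beside each list count. With the trend in GC content and mature transcript length taken out, 4710 of 13320 genes were below and 3875 above. Those counts are to be set beside each list count from that fit. Passage through G2 and mitosis is driven by genes that the MuvB complex, MYBL2 and FOXM1 switch on late in the cycle, many of them through a CHR element and CCAAT boxes in their promoters. Of 54 G2/M genes tested, 52 were below additivity and 2 above (adjusted p under 0.05, edgeR), and 26 were at least 2-fold below. The median interaction was -0.98, and the median effect was 0.47 in shKDM5C, 0.27 in shYY1 and -0.31 in Dsh cells: the program was somewhat up in each single and down in the pair. With the trend in GC content and mature transcript length taken out, 52 were below and the median was -0.997. CKS2, a subunit of cyclin-dependent kinases, had 77.7, 75.9 and 70.4 CPM in shNC, 92.2, 104 and 82.5 in shKDM5C, 112, 102 and 119 in shYY1 and 43.5, 32.8 and 33.4 in Dsh libraries. The 3 Dsh libraries were the lowest of the 12 (interaction -1.92, standard error 0.12, adjusted p = 4.03e-13, edgeR). PIMREG, a mitotic regulator, was at -1.96. The 2 exceptions were LBR, a receptor of the inner nuclear membrane (0.69), which fell in shYY1 cells (log2 effect -1.40), and ECT2, an exchange factor of cytokinesis (0.21, and 0.10 with an adjusted p of 0.091 when the GC and gene length trend was taken out).

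The regulators of this program are described next. FOXM1 had 163, 163 and 162 CPM in shNC, 215, 211 and 217 in shKDM5C, 211, 215 and 215 in shYY1 and 110.4, 113 and 110.4 in Dsh libraries. Both singles raised it by a like amount and the pair lowered it, an interaction of -1.34 (standard error 0.051, adjusted p = 3.65e-17, edgeR). Of the E2F, RB and DREAM regulators, 9 of 20 were below and 5 above, and of the cyclins, CDKs and their inhibitors 13 and 6 of 24. MYBL2 was at -1.64, the activator E2F2 at -1.64, the cyclin CCNA2 at -1.69 and the phosphatase CDC25C at -1.63. On the other side were E2F7, a repressor (0.48), RBL2, the pocket protein p130 (0.53), and the G1 cyclins CCND3 (0.81) and CCND2. CCND2 was at 0.318 ± 0.282 CPM in shNC, 0.235 ± 0.168 in shKDM5C, 1.58 ± 0.0965 in shYY1 and 20.9 ± 1.45 in Dsh cells. Of the 36 kinetochore and checkpoint genes, 31 were below and none above (median -0.89), led by SPC25 (-1.53), a subunit of the NDC80 complex, and CDCA8 (-1.38), borealin. This list shares genes with the G2/M list. S phase genes were below in 33 of 43 and above in none, with a smaller median of -0.55 and with singles near 0 (-0.056 and -0.16). Of the helicase and licensing genes, which share members with it, 17 of 23 were below and 1 above. GINS2, a subunit of the replicative helicase, led with 35.8 ± 1.64, 40.9 ± 0.344, 33.4 ± 2.74 and 9.82 ± 1.29 CPM in shNC, shKDM5C, shYY1 and Dsh cells (-1.95). Of the condensin and cohesin genes, 14 of 21 were below, among them SMC1A (-1.19), SMC2 (-0.96) and SMC4 (-0.50). LMNB1 (0.12, adjusted p = 0.0988, edgeR), KNTC1 (-0.16, adjusted p = 0.0673, edgeR) and JAM3 (-0.19, adjusted p = 0.151, edgeR), which the study follows, did not pass the test of the interaction. The study reports their fall in double-knockdown cells, which is another measure. In Dsh against shNC cells the log2 effect was -0.18 for LMNB1 (adjusted p = 0.000586, edgeR). It was -0.78 for KNTC1 (adjusted p = 1.83e-12, edgeR) and -1.74 for JAM3 (adjusted p = 3.98e-16, edgeR).

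The promoters of 3 of these genes are shown because they hold both elements close to the start of transcription. Each is the RefSeq window of GRCh38.p14 from 250 bases before to 50 after the start, 5′ to 3′ on the gene's strand, with TTTGAA (the CHR) and CCAAT on either strand in capitals. CKS2 is at chr9:89310945-89311244 on the plus strand, CDCA8 at chr1:37692266-37692565 on the plus strand and SPC25 at chr2:168890381-168890680 on the minus strand.
CKS2: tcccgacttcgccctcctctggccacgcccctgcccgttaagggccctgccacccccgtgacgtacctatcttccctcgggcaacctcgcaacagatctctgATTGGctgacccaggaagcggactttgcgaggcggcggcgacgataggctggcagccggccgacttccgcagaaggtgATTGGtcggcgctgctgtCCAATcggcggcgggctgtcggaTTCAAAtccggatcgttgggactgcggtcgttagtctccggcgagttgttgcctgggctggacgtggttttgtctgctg
CDCA8: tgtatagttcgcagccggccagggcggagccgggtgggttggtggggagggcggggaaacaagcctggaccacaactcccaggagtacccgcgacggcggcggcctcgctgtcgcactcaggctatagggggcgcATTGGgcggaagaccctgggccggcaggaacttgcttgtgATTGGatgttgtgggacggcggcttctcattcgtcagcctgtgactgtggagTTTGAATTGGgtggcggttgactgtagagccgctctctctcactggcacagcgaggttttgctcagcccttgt
SPC25: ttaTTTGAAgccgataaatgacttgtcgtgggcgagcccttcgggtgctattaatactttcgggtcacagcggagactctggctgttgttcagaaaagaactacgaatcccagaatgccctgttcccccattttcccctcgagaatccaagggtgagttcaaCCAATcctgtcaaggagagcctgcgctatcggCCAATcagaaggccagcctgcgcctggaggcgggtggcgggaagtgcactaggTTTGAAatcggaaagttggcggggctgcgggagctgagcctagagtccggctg
The CHR letters begin 29 bases before the start in CKS2, 23 in CDCA8, and 3 and 247 in SPC25, and CCAAT begins between 18 and 148 bases before it. TTTGAA was found in 31 of the 45 promoters of G2/M genes that the table holds (68.9%), 13 of 29 of the kinetochore list (44.8%) and 2 of 32 of the S phase list (6.25%), against 9.53% of the 10878 promoters of protein-coding genes tested. The promoters of S phase genes instead held the E2F letters TTCCCGC in 18 of 32 (56.2%), against 10.3%. Over all protein-coding genes 2-fold below additivity, TTTGAA was in 112 of 788 promoters (14.2%) and over those above in 95 of 946 (10.0%). The letters AANATGG, an approximate YY1 site, were in 12.1% of the promoters below and 9.62% of those above, against 15.1% of all tested. A match is a description of the letters and not of binding.

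Target genes of p53, many of which restrain growth, lay mostly above additivity. Of 25 tested, 21 were above and 2 below, with 5 at least 2-fold above. The median interaction was 0.71. The singles raised this list too (medians 0.40 and 0.53), and the pair raised it by more than their sum, by 1.67. BTG2, an antiproliferative cofactor, had 43.9, 36.6 and 39.5 CPM in shNC, 50.5, 54.3 and 52.98 in shKDM5C, 54.8, 59.8 and 59.05 in shYY1 and 233, 215 and 226 in Dsh libraries, with no overlap between Dsh and the rest (interaction 1.56, standard error 0.079, adjusted p = 1.31e-14, edgeR). SESN2, a stress-induced inhibitor of mTORC1, was at 1.53. The 2 genes below were AEN (-1.15), an apoptosis-enhancing nuclease, and BAX (-0.91), a pore-forming member of the BCL2 family, which rose in each single and stood at 0.35 and 0.03 against the control in Dsh cells. Other death genes lay on both sides, in counts to be read against the 28.8% of all genes below and 26.8% above. In the BCL2 family 4 of 14 were below and 7 above. BBC3 (PUMA) and BCL2L11 (BIM), which activate that pore, were above at 0.88 and 1.04, while BID was below at -1.03. In the caspase and inhibitor list, 6 of 24 were below and 9 above, with DIABLO (-1.79) and CYCS, cytochrome c (-1.28), lowest, and TRADD (1.04) and BIRC3 (0.91) highest among members with a mean of at least 5 CPM.

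Amino acid and sterol genes lay mostly below additivity. ATF4 is the factor that raises amino acid transport and synthesis under stress, and 16 of 24 genes of its response were below and 4 above (median -0.94). SLC7A5, the leucine exchanger LAT1, had 1922, 1859 and 1933 CPM in shNC, 1264, 1264 and 1273 in shKDM5C, 3200, 3188 and 3109 in shYY1 and 526, 534 and 558 in Dsh libraries. It fell with KDM5C knockdown, rose with YY1 knockdown and was lowest with both (interaction -1.97, standard error 0.044, adjusted p = 5.85e-22, edgeR), and its partner chain SLC3A2 was at -1.50. NUPR1, a stress-response cofactor, rose in each single and was at -2.33. The exceptions above additivity included DDIT4 (1.80) and SESN2, both inhibitors of mTORC1. Of 25 cholesterol genes, 19 were below and 3 above (median -0.51). HMGCS1, which makes HMG-CoA, had 111, 113 and 118 CPM in shNC, 108, 107 and 108 in shKDM5C, 78.4, 87.1 and 81.96 in shYY1 and 29.97, 29.1 and 28.4 in Dsh libraries (interaction -1.42, adjusted p = 2.75e-15, edgeR). HSD17B7, an enzyme of the pathway, was above at 0.54. In fatty acid synthesis, 11 of 20 genes were below, with the desaturase SCD at -0.99, and in the antioxidant list of NRF2, 16 of 23 were. There HMOX1, heme oxygenase, had 49.8 ± 0.922, 198 ± 4.36, 106 ± 1.78 and 79.4 ± 7.55 CPM in shNC, shKDM5C, shYY1 and Dsh cells (-2.42), a limited gene that both singles raised. In hypoxia and glycolysis, 17 of 29 were below, led by the vasodilator peptide ADM (-2.06), and 7 above, VEGFA among them (0.65).

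Epithelial identity genes did not move as one. Keratins, the intermediate filaments of epithelia, were below in 9 of 11 tested and above in none (median -1.15, and -1.09 with the transcript length trend taken out). KRT8 had 1410, 1373 and 1386 CPM in shNC, 1943, 1980 and 1895 in shKDM5C, 1806, 1749 and 1774 in shYY1 and 715, 643 and 723 in Dsh libraries. Each single raised KRT8 and the pair lowered it to a mean of 694 CPM (interaction -1.84, standard error 0.052, adjusted p = 1.19e-19, edgeR). The kidney factors PAX2 and PAX8 went opposite ways. PAX2 had 26.7, 27.7 and 28.5 CPM in shNC, 8.92, 9.04 and 8.70 in shKDM5C, 87.9, 82.8 and 76.03 in shYY1 and 6.54, 4.64 and 4.64 in Dsh libraries (-2.33, adjusted p = 2.82e-13, edgeR). Its rise with YY1 knockdown was absent in Dsh cells. PAX8 had 527, 538 and 541 CPM in shNC, 376, 379.6 and 383 in shKDM5C, 499, 506 and 466 in shYY1 and 690.1, 691 and 747 in Dsh libraries (1.03, adjusted p = 2.42e-14, edgeR). SIX2 was below (-2.01) and POU3F3 above (3.77), so that the list of kidney factors stood at 5 below and 7 above of 20. Tubule transport and metabolism genes were above in 11 and below in 7 of 22 (median 0.65). SLC17A3, a urate exporter, had 1.62, 2.34 and 0.337 CPM in shNC, shKDM5C and shYY1 cells and 19.6 in Dsh cells (5.30), while the phosphate transporter SLC34A2 gained in shYY1 cells (820.5 ± 27.8 CPM against 236 ± 17.8) and far less in Dsh cells (292 ± 13.1, interaction -1.69). FOLR1, a folate receptor, had 25.4 CPM in shNC cells, was lower in both singles (1.58 with the KDM5C and 0.461 with the YY1 hairpin) and had 8 counts over the Dsh libraries. Its interaction of 2.20 had an adjusted p of 0.0562 without Dsh replicate 1 and 0.115 without Dsh replicate 3 (edgeR).

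Matrix genes moved strongly in both directions, with 16 of 33 above and 11 below (median 0.45, and 0.15 with the transcript length trend taken out). COL1A1 had 585, 595 and 545 CPM in shNC, 47.04, 51.5 and 47.3 in shKDM5C, 159, 157 and 153 in shYY1 and 127, 130.4 and 143 in Dsh libraries. Dsh cells thus held more COL1A1 than KDM5C-depleted cells, where additive effects give 13.2 CPM (interaction 3.34, standard error 0.069, adjusted p = 1.61e-22, edgeR). NID2, nidogen, a basement membrane linker, went the other way, with 148 ± 9.05 CPM in shYY1 and 17.8 ± 1.92 in Dsh cells against 34.4 ± 2.47 in the control (-2.83). Metalloproteinases and their inhibitors were below in 8 and above in 7 of 22. The matrix proteases MMP14 (1.59) and ADAMTS5 (2.62) were above and ADAMTS9 (-1.30) and the urokinase PLAU (-0.84) below. Of the epithelial-mesenchymal genes, 12 of 26 were above, with FN1 and tenascin C, TNC (1.76), leading, and 2 below, SNAI1 (-1.04) and CDH2 (-0.63). Guidance genes and HOX genes were above more often than below: 15 against 9 of 26 semaphorin, plexin and neuropilin genes and 17 against 9 of 37 HOX genes. SEMA5A (1.61) and HOXB8 (2.03) stood above and SEMA3F (-1.32) and HOXD10 (-1.03) below.

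Signalling lists held members on both sides of additivity, in shares to be read against the 28.8% of all genes below and 26.8% above. With the transcript length trend taken out, 4710 of 13320 genes were below and 3875 above. Among growth factor receptors, FGFR2 was below additivity. It had 201 ± 2.90 CPM in shNC, 72.3 ± 1.73 in shKDM5C, 216 ± 3.25 in shYY1 and 8.99 ± 1.44 in Dsh cells (interaction -3.09, adjusted p = 2.44e-20, edgeR). ERBB3 was at -2.94, and the ligands PDGFB (1.37) and GAS6 (1.36) were above, for 12 below and 17 above of 38. The insulin-like growth factor binding proteins split, with IGFBP3 at -1.91, IGFBP7 at 1.61, the protease PAPPA that cleaves such proteins at -3.32 and its inhibitor STC1 at 1.92. AP-1 and immediate early genes were above in 16 of 25, led by SPRY2 (2.13) and JUND (1.61), and below in 3, JUNB (-1.51) and ATF3 (-1.20) leading. IL6 had 13.2, 13.3 and 14 CPM in shNC, 34.5, 35.1 and 32.96 in shKDM5C, 57.3, 62.8 and 56.5 in shYY1 and 59.4, 66.8 and 57.2 in Dsh libraries, so the pair reached the level of the YY1 knockdown and not the sum (-1.29, adjusted p = 2.60e-11, edgeR). VCAM1, an adhesion molecule of the same NF-kB list, had 0, 0.106 and 0.213 CPM in shNC, 0.581, 0.821 and 0.429 in shKDM5C, 0 in each shYY1 and 31.5, 33.5 and 30.1 in Dsh libraries. Its fitted interaction has no firm size because shYY1 held no count. In the TGF-beta list TGFBI (-1.66) was below and BMP4 (1.75) and TGFB2 (1.14) above, and in the WNT list the receptors FZD7 (1.37) and FZD2 (1.11) were above and TCF7 (-1.59), a nuclear effector, below. Of the NF-kB list 6 were below and 12 above of 27, of the TGF-beta list 10 and 8 of 26, and of the WNT list 12 and 13 of 35 (13 and 12 with the transcript length trend taken out). For YAP and TEAD targets the counts were 7 and 13 of 27, for IGF binding proteins 3 and 5 of 15, and for glycogen and ferroptosis genes 7 and 11 of 26. TEAD4 was at -0.60 and AMOTL1, an angiomotin of the YAP pathway, at 1.74.

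Chromatin lists lay near the median of all genes. The counts of this paragraph are to be read against the 28.8% of all genes below and 26.8% above. Those with the transcript length trend taken out are to be read against 4710 below and 3875 above of 13320 genes. Of 20 enzymes of H3K4 methylation, 5 were below and 6 above, and 8 and 4 with the transcript length trend taken out. KDM5B, the paralog of KDM5C, was above and rose in Dsh cells. It had 92.5 ± 1.56 CPM in shNC, 104 ± 4.83 in shKDM5C, 71.2 ± 2.44 in shYY1 and 163 ± 9.57 in Dsh cells (1.04, adjusted p = 1.58e-12, edgeR, and 0.82 with that trend taken out), while KDM1A was at -0.61 and WDR5 at -0.60. Among YY1 partners, 14 of 36 were below, with the Polycomb methyltransferase EZH2 at -1.03, and 11 above, with BMI1 at 0.87. With the transcript length trend taken out, 10 of 35 YY1 partners were below and 9 above. Interferon-stimulated genes had 9 below and 12 above of 33 (USP18 -1.36, STAT2 1.08), and MHC class I genes 8 and 4 of 17 (PSMB9 -1.05, ERAP2 0.71). With the transcript length trend taken out, the MHC class I counts turned to 5 below and 6 above. Homologous recombination genes were below in 14 of 29, EXO1 the furthest at -0.91, and above in 4, PALB2 leading at 0.72. The MYC network had 20 of 32 below (median -0.33) and the secretory chaperones 11 of 21, with CALR at -1.08 and the sensor ERN1 at 1.13 on the other side.

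**Figure D4:**
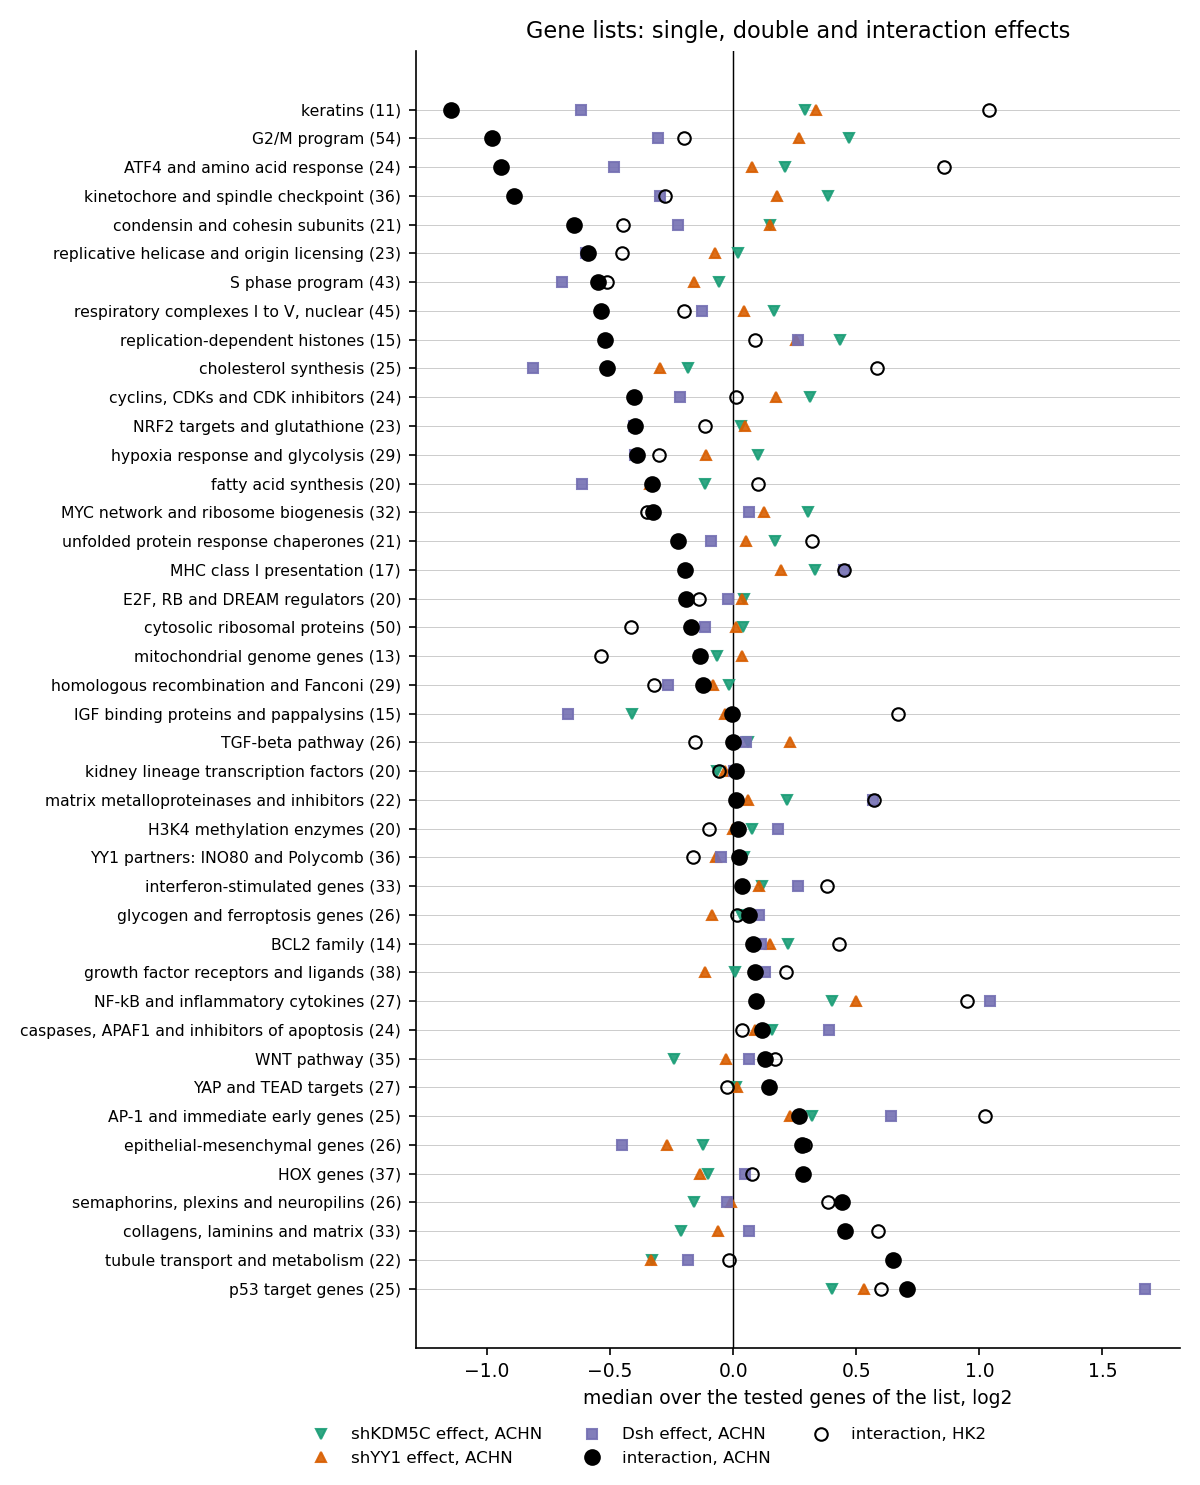
Median log2 value over the tested genes (horizontal) of 42 gene lists (vertical, number of genes in brackets), ordered by the ACHN interaction (filled circles); triangles and squares are the single and double knockdown effects in ACHN cells and open circles the interaction in HK2 cells. Keratins (-1.15) and the G2/M program (-0.98) are lowest and p53 targets (0.71) highest; in the G2/M list the singles lie to the right of 0 and Dsh to the left.

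The annotated length of the mature RNA moved with the interaction. Genes with a mean of at least 5 CPM were grouped by the length of their MANE Select transcript, the reference transcript of each gene. The median interaction was -1.16 in 47 genes of up to 500 bases, -0.44 in 142 genes of 500 to 700, -0.15 in 2143 genes of 1500 to 2500 and 0.092 in 3106 genes over 5000 bases. In the class of up to 500 bases the median effect was 0.074 in shKDM5C, 0.027 in shYY1 and -1.02 in Dsh cells. In the class of 1500 to 2500 it was 0.12, 0.025 and -0.039, so there the shKDM5C effect was the larger part of the interaction. The medians of both singles stayed within 0.16 of 0 in every class. Of the shortest class, 27 of 47 genes (57.4%) were 2-fold below additivity. Ribosomal protein genes were among them, and the part of transcript length or of RNA handling in these results was not tested. RPL30, a protein of the large ribosomal subunit with a transcript of 498 bases, had 232, 228 and 227 CPM in shNC, 185, 218 and 192 in shKDM5C, 263, 249 and 285 in shYY1 and 15.9, 13.8 and 11.9 in Dsh libraries (interaction -4.06, adjusted p = 2.69e-21, edgeR). RPS23, of the small subunit, with an annotated transcript of 3252 bases, had 13.1 ± 0.934 CPM in Dsh cells against 206 under additivity (-3.98). RPL23A, with 970 bases, had 42.3 ± 5.42 against 384 (-3.19). Of all 75 cytosolic ribosomal protein genes tested, 16 were 2-fold below additivity and none 2-fold above, and 43 were below and 13 above at any size, RPL29 (0.78) and RPL26 (0.83) among the latter. Within these genes the Spearman correlation of the interaction with MANE Select transcript length was 0.058 across 75 genes, which are not independent. These are annotated lengths, such as 7573 bases for RPL37 (-1.65), and the length of the RNA in these cells was not measured. The correlation therefore does not show whether the interaction of these genes moved with the length of their RNA. Only 9 of the 75 had annotated transcripts of up to 500 bases, and 6 of those 9 were among the 16. In the ribosomal list 24 of 50 were below and 9 above. With the length trend taken out the counts were 17 and 26, and the median turned from -0.17 to 0.20. Over all genes that fit gave 4710 below and 3875 above of 13320. Ribosomal genes share reads with many pseudogene copies, which makes their single values uncertain. Nuclear respiratory genes were below in 32 and above in 8 of 45, with COX6C (-1.82) and NDUFB3 (-1.65) furthest below. With the trend out 26 were below and 13 above, and the median went from -0.54 to -0.25. Replication-dependent histone genes, with a median transcript of 489 bases, had a median of -0.52 that turned to 0.14. Of the mitochondrial genome, 7 of 13 genes were below and 2 above, and MT-ND4L (-2.23) and MT-ATP8 (-1.77) were lowest; both overlap a neighbouring gene, where the assignment of reads is uncertain. MT-ATP8 had already fallen in shKDM5C cells, at 26.9 ± 3.12 CPM against 361 ± 15.8 in the control.

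**Figure D5:**
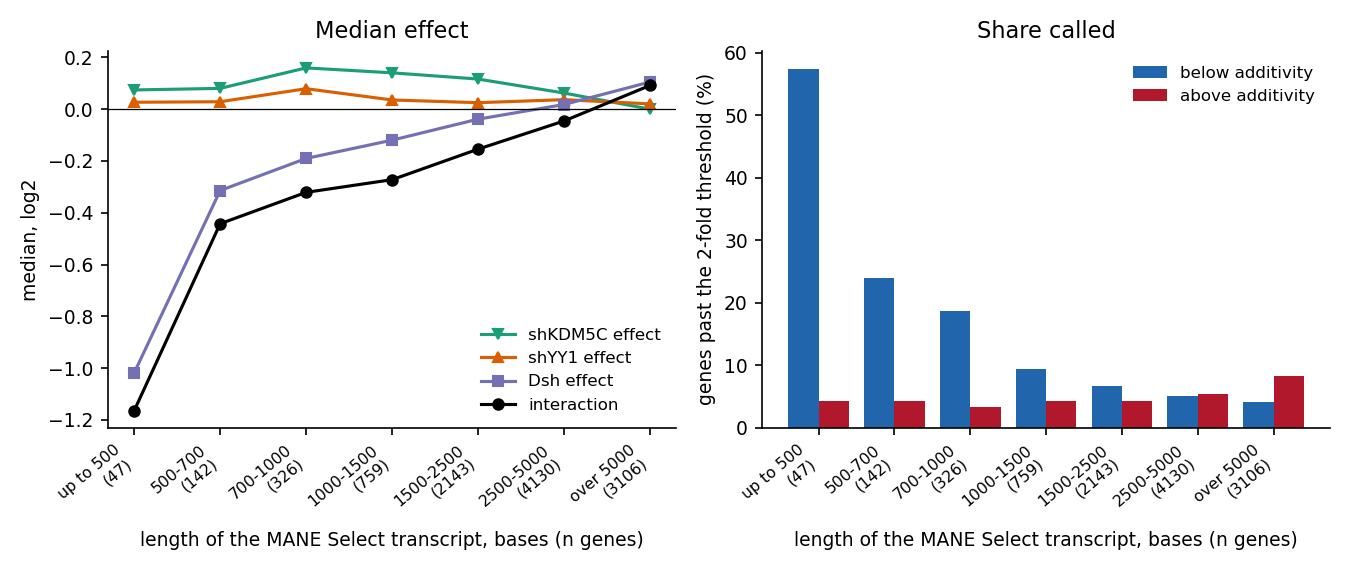
Median log2 effect (left) and share of genes past the 2-fold threshold in percent (right) against the length class of the MANE Select transcript in bases (horizontal, number of genes in brackets), for genes with a mean of at least 5 CPM. The singles stay within 0.16 of 0 in every class, while Dsh and the interaction fall toward short transcripts, to -1.16 for the interaction in the shortest class.

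Position on the chromosomes also moved with the interaction. Chromosome 17 had a median interaction of 0.34 over 1071 genes, with 174 (16.2%) at least 2-fold above additivity against 10.3% of all genes, and chromosome 13 a median of 0.27 over 297 genes. In stretches of 20 megabases, medians ran from -0.55 on chromosome 8 between 100 and 120 megabases to 0.52 over the first 20 of chromosome 18. There the median effect was 0.33 in shKDM5C, -0.61 in shYY1 and 0.24 in Dsh cells over 42 genes. Of 154 stretches, 28 had a median beyond 0.2 in size. Subtracting the median of its stretch from each gene left 1257 genes below and 1803 above. The part of copy number in these shifts was not tested. By gene class, processed pseudogenes were below in 17.7% and above in 12.5% of 560 tested, against 7.59% and 8.99% of 13447 protein-coding genes, and long noncoding RNAs in 8.03% and 13.6% of 2192. The 18 genes of an unlocalised scaffold that carries ribosomal DNA summed to between 352.8 and 457.7 CPM in Dsh libraries and to between 21.2 and 240.7 in the other 9.

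The interaction was then compared with that in HK2 cells, a human proximal tubule cell line that the paper calls nontumoral. The difference of the interactions was tested over all 24 libraries in 1 joint fit, in which ACHN values can differ slightly from those above. Of 19082 genes tested, 4256 (22.3%) differed, 2339 lower in ACHN and 1917 higher (adjusted p under 0.05, edgeR). HK2 shKDM5C replicate 1 stood apart from its group, and without it 6573 genes differed (33.3% of 19718). Of the 3142 ACHN genes 2-fold from additivity that were tested here, the interaction in HK2 cells passed its own test in the same direction in 447 (14.2%) and in the other direction in 237 (7.54%), against 19.4% of all genes in either direction. Without that library the counts were 667 and 305 of 3150. PLEKHA7 was at -0.37 in HK2 cells (difference -6.32, standard error 0.25, adjusted p = 4.49e-14, edgeR), and NRK at -0.96 (difference 10.21, adjusted p = 7.51e-13, edgeR). ID3 did not pass the test of a difference, with -3.01 in ACHN and -2.89 in HK2 cells (difference -0.14, standard error 0.53, adjusted p = 0.913, edgeR). The ATF4 response lay on opposite sides of additivity in the cell lines. Its median was -0.94 in ACHN and 0.86 in HK2 cells, and 19 of 24 genes were lower in ACHN by the test of the difference, a count that was 19 without the library that stood apart. SLC7A5 was at -1.97 in ACHN and 1.02 in HK2 cells (adjusted p of the difference 3.54e-10, edgeR). Cholesterol genes were lower in ACHN in 20 of 25 (medians -0.51 and 0.59), keratins in 7 of 11 (-1.15 and 1.04) and G2/M genes in 30 of 54 (-0.98 and -0.20), or 46 without the library that stood apart. FOXM1 was at -0.34 in HK2 cells (adjusted p of the difference 2.65e-07, edgeR). In the S phase list 6 genes were lower and 6 higher in ACHN (9 and 11 without that library), with medians of -0.55 and -0.51, and of the p53 targets 4 were lower and 2 higher (7 and 7 without it), with medians of 0.71 and 0.60. AP-1 genes had a higher median in HK2 cells (1.02) than in ACHN cells (0.27), and 12 of 26 were lower and 4 higher in ACHN. Without the HK2 library that stood apart, the counts were 12 and 9 and the HK2 median 0.77.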

How the data were processed

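RNA was sequenced from 24 libraries, of which the 12 of ACHN cells carry the interaction. The authors deposited raw counts of read pairs per gene for each library, and the deposited counts were used as they are. Per the labels reads were aligned to hg38 with HISAT2 2.0.5. Per the file headers they were counted with featureCounts 2.0.1 on Ensembl release 84 (the labels name 1.5.0-p3), in pairs and without strand, so that reads of overlapping and antisense genes cannot be told apart. Here counts were fitted with edgeR 4.0.16 in R 4.3.3: TMM scaling, the filter on low counts by group, 1 mean per group and the quasi-likelihood F test, with p-values adjusted by Benjamini-Hochberg across every gene that passed the filter. The interaction test was tested on simulated data of 16750 genes: it called 98% of 100 genes with an interaction of 1 and 100% of 100 with 2 (log2), and 7.48% of its calls fell on unchanged genes, more than the nominal 5%. Groups follow the labels. The smallest ACHN library held 17910371 counts, which limits genes with few counts; counting error was not separated from other spread. HK2 libraries entered only the test of the difference. Of 1285 members of 44 gene lists, 1282 matched the files. Gene lengths are of MANE Select transcripts of GENCODE. Promoters are from RefSeq (GRCh38.p14).

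Genes named are KDM5C and YY1, 6 genes that the study follows, the 10 protein-coding genes furthest below and the 10 furthest above additivity with a mean of at least 10 CPM, up to 3 per pattern and direction, and up to 2 per list and direction with a mean of at least 5 CPM. The members, lists and comparisons were chosen with earlier results of these data known. Alternatives were RLE factors, total counts, DESeq2 1.42.0, limma-voom (limma 3.58.1), other filters, a replicate block, GC and length trends taken out as an offset, and each library left out. Offsets by MANE length, stretches of 20 megabases and the omission of pseudogenes were added after seeing the data. Some genes that this rule names are not reported here.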

Additional observations from a re-analysis of the deposited data

Results flagged for a closer look

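The interaction differed between the cell lines in 4256 genes by the test of the difference itself over all 24 libraries (adjusted p under 0.05, edgeR). Among the 20 protein-coding genes with a mean of at least 10 CPM that lay furthest below or above additivity in ACHN cells, 15 differed and had a mean of at least 1 CPM in HK2 cells. Over all 19082 genes tested, 22.3% differed. The 20 were picked by the ACHN interaction, which is itself a term of this test. The 15 are therefore a description and cannot be weighed against that share. Of the genes below additivity, the log2 difference of the interactions, ACHN minus HK2, was -6.32 for PLEKHA7 (-6.67 in ACHN and -0.37 in HK2 cells), -3.94 for GDF6 (-4.50 in ACHN and -0.57 in HK2 cells), -5.47 for MSLN (-4.43 in ACHN and 1.02 in HK2 cells), -5.20 for BGN (-4.33 in ACHN and 0.87 in HK2 cells), -5.10 for CACNA1H (-4.31 in ACHN and 0.77 in HK2 cells), -3.01 for ANKRD1 (-4.31 in ACHN and -1.31 in HK2 cells) and -4.53 for DKK1 (-4.13 in ACHN and 0.39 in HK2 cells). Of those above, it was 10.21 for NRK (9.27 in ACHN and -0.96 in HK2 cells), 6.63 for FXYD2 (6.55 in ACHN and -0.10 in HK2 cells), 5.03 for ITGB3 (5.70 in ACHN and 0.66 in HK2 cells), 4.63 for COL5A2 (4.86 in ACHN and 0.21 in HK2 cells), 4.28 for HOXA7 (4.77 in ACHN and 0.48 in HK2 cells), 5.83 for VAV3 (4.22 in ACHN and -1.63 in HK2 cells), 5.35 for SEMA6A (4.17 in ACHN and -1.19 in HK2 cells) and 5.49 for NEFL (4.02 in ACHN and -1.48 in HK2 cells). The value of NRK rests on 7 counts in the ACHN shYY1 libraries, and MSLN, BGN and COL5A2 had means of 1.71, 1.86 and 1.72 CPM in HK2 cells. All 15 also passed without HK2 shKDM5C replicate 1.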

How the results depend on the processing

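The counts of genes below and above additivity stayed within 1.5 times under every alternative run. With 1 ACHN library left out they ran from 1334 to 1448 (2-fold below), 1699 to 1826 (2-fold above), 4602 to 4963 (below, any size) and 4384 to 4637 (above, any size). Scaling by total counts gave 1188 and 2048 genes 2-fold below and above and moved the median of all genes from 0.012 to 0.11, DESeq2 gave 1347 and 1691, and the trend with GC content and MANE length taken out gave 974 and 1209 over fewer genes. Replicate numbers did not pair the libraries: deviations of same-numbered libraries correlated between -0.173 and 0.109 over 18 pairs, 1 of them over 0.1. A replicate block gave 1381 and 1747 genes and kept 3102 of 3151 calls, and 3862 genes differing from HK2. That difference rose from 4256 to 6573 genes without HK2 shKDM5C replicate 1, and the cause was not tested. Of 4070 alternative values for 194 named genes, 4045 kept their direction and side of the threshold, 15 lost the threshold, 9 gained it and 1 turned: GPX4, a glutathione peroxidase, went from 0.31 to -0.017 with the trend in GC content and gene length taken out, the cause not being tested. Pattern counts depend on the cut of 0.5. Depth limits genes with few counts in a group, such as SLCO2B1 and ADAM28 in Dsh libraries.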
